A study of Canis lupus familiaris with 25 samples.

Results

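The genes described here are those that make, inactivate and sense prostaglandins in canine perianal tumors, namely the cyclooxygenases PTGS1 and PTGS2, the terminal synthases PTGES, PTGES2, PTGES3 and PTGIS, the receptors PTGER2, PTGER3 and PTGER4, and the degrading enzyme HPGD. They were chosen by name, and all 10 were found among the 24532 genes of the count table. The table holds QuantSeq 3′ counts, which read each transcript near its 3′ end, of 25 archival formalin-fixed, paraffin-embedded (FFPE) dog tumor samples. Of these, 10 were hepatoid gland adenomas (HGA), benign tumors of the perianal glands, 11 were primary apocrine gland anal sac adenocarcinomas (AGASAC), which are malignant, and 4 were sublumbar lymph node metastases of the dogs of AGASAC 1 to 4. The labels name no treatment and number each primary tumor separately. The HGA were taken from 5 females and 5 males of 8 to 14 years, of which 4 were labeled neutered. The primary AGASAC came from 5 females and 6 males of 8 to 12.5 years, of which 9 were labeled neutered, and 3 of the 4 dogs with a metastasis were. The samples are whole tumor tissue, so each value sums tumor cells, stroma and infiltrating cells.

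Prostaglandins are made from arachidonic acid, which phospholipases release from membranes. The cyclooxygenases turn it into prostaglandin H, PTGS1 in many resting tissues and PTGS2 after stimulation by cytokines, growth factors or tumor signals. Terminal synthases then give prostaglandin E (PTGES, PTGES2, PTGES3) or prostacyclin (PTGIS). Prostaglandin E acts through the EP receptors, of which PTGER2 and PTGER4 raise cAMP and PTGER3 mostly lowers it, and HPGD oxidizes it to a form with little activity. Inhibitors of the cyclooxygenases are in clinical use in dogs with several carcinomas.

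The libraries held 1562347 to 6389555 counts each. Levels are given as CPM, counts scaled to a common library total, and 3 counts, the number a count of 0 allows, equaled 0.543 to 1.84 CPM in HGA, the group with both the deepest and the shallowest library. These limits cover counting error only. DV200, the percentage of RNA fragments over a minimum length, was 70.5 to 92.7 in HGA, 70.2 to 84.4 in primary AGASAC and 71.8 to 82.9 in the metastases. The marker genes of simple epithelium (keratins and EPCAM, 5 genes) summed to 409 to 731 CPM in HGA, 3556 to 6221 in primary AGASAC and 3458 to 5982 in the metastases. Those of stratified epithelium (keratins, TP63 and DSG3, 5 genes) summed to 3099 to 12853, 0 to 33.3 and 0.531 to 18.5 CPM. Lymph node stroma genes (3 of 4 listed were in the table) reached 14.5 CPM in the metastases, 24.5 in primary AGASAC and 135 in HGA. The median sums of T cell genes (5 genes) were 38.7, 21.1 and 5.79 CPM in the same order. Those of B cell genes (5 genes) were 26.4, 17.6 and 13.3 CPM. The part of lymphocytes in the levels of the metastases was not tested. RNA was extracted in 6 batches, of which batches 5, 6 and 8 held at least 2 samples of both tumor types.

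**Figure D1:**
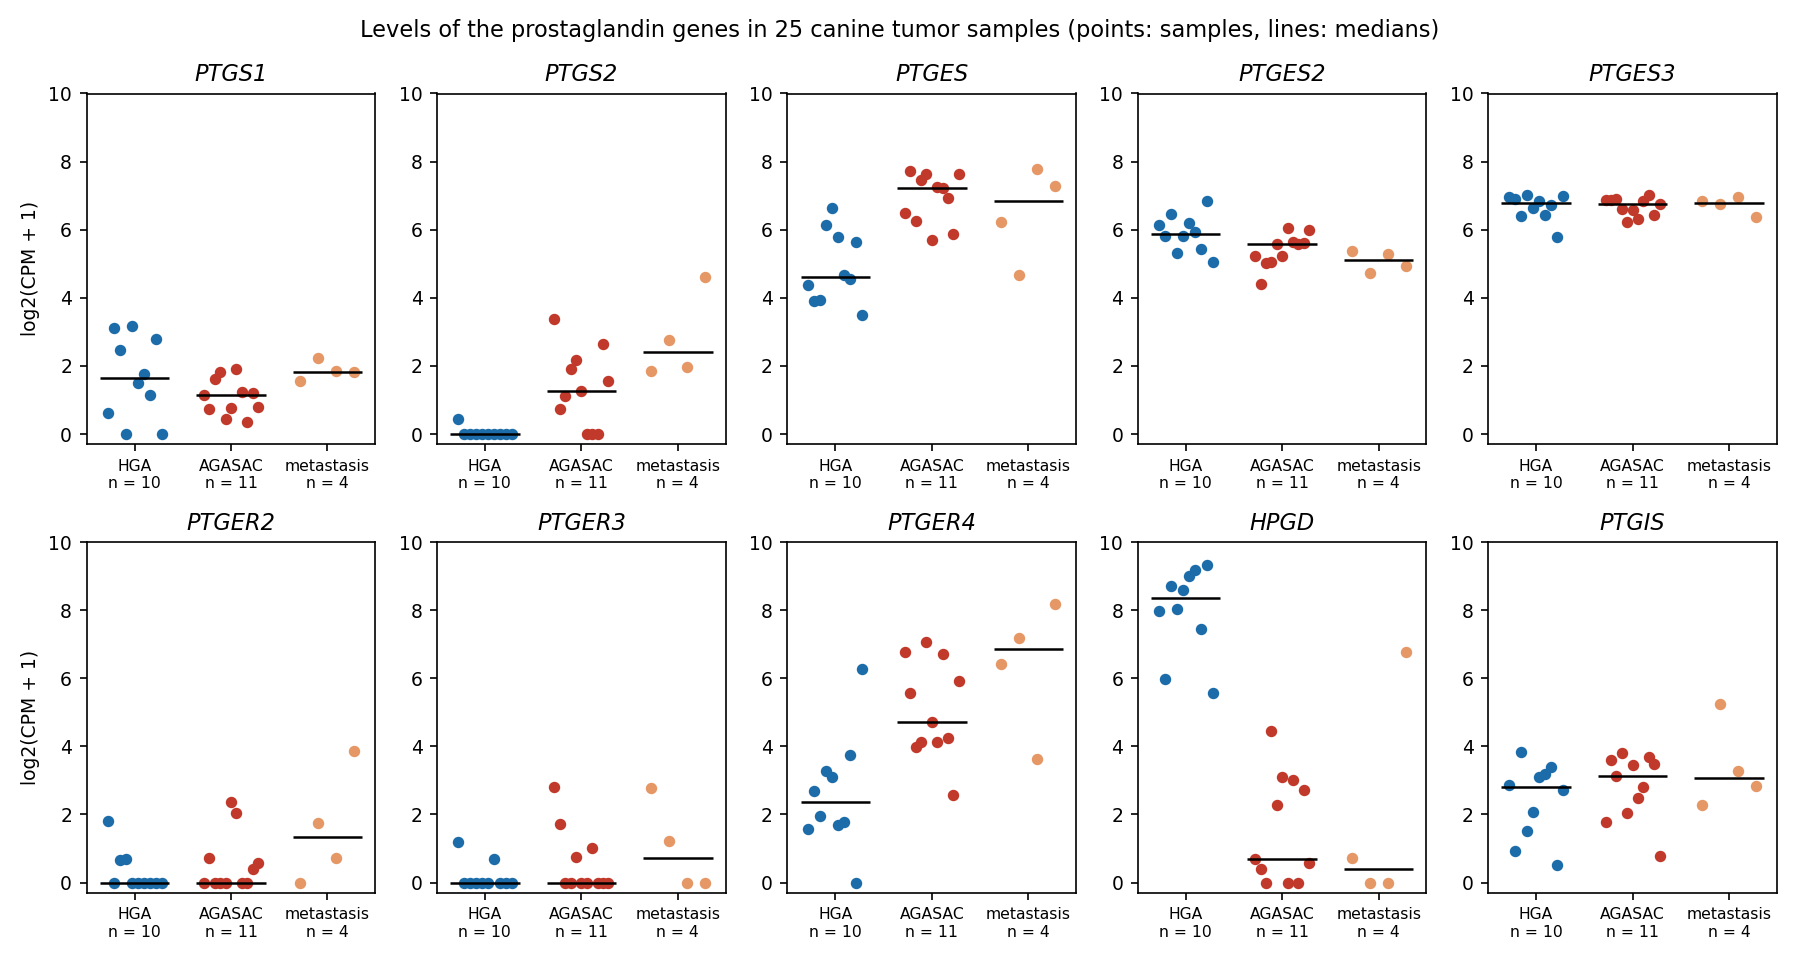
Level of each gene on the log2(CPM + 1) scale (y-axis) in 10 HGA, 11 primary AGASAC and 4 metastases, with 1 point per sample and a line at the group median. HPGD is high in all 10 HGA and low in all 11 primary AGASAC, PTGS2 is at 0 in 9 of 10 HGA, and PTGES3 lies in the same narrow range in all groups.

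The comparison of HGA with primary AGASAC asked which genes separate the tumor types. These differ in cell of origin as well as in being benign or malignant, which cannot be told apart here. HPGD, the enzyme that inactivates prostaglandin E, was higher in HGA, and PTGES, the inducible synthase of prostaglandin E, was lower. PTGES2, PTGES3, PTGIS and PTGER4 did not pass the thresholds, which were an adjusted p of at most 0.05 (edgeR's quasi-likelihood test, Benjamini-Yekutieli adjustment over all genes tested) and a log2FC of 1 or more in either direction. Hence 2 of the 6 members that passed the filter on low counts were called, 1 in each direction, beside 25.1% of all 12070 genes tested (12.6% higher and 12.5% lower in HGA). PTGS1, PTGS2, PTGER2 and PTGER3 did not pass the filter, and their values are from a fit without it, in which 16.2% of 24332 genes were called and PTGS2 was the third called member.

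HPGD was the member that differed most. It ranged from 46.4 CPM in HGA 10 to 635 in HGA 9 (median 325, mean 333 ± 207, SD, n = 10). In primary AGASAC it ranged from 0 to 20.8 CPM, with a median of 0.603 and a mean of 4.2 ± 6.27 (SD, n = 11). No primary AGASAC reached the lowest HGA, 3 had no HPGD read at all, and the highest was AGASAC 4. Groups that do not overlap, with HGA higher, were found in 4.37% of all genes tested. The log2FC of HGA relative to AGASAC was 6.31 (SE 0.79, adjusted p = 5.88e-06), a 79.5-fold difference with a 95% interval of 4.77 to 7.85 on the log2 scale. In bulk tissue, fewer cells that express a gene and less RNA per cell cannot be told apart. The sums of the simple and stratified epithelium genes given above also separated the groups without overlap, and their part in the HPGD difference was not tested. With the 3 batches taken alone, the log2FC of HPGD was 12.92, 4.05 and 8.46 in batches 5, 6 and 8, and the call was lost in batch 6 (adjusted p = 0.159). The primary AGASAC of batch 5 (AGASAC 3, 7 and 9) had no HPGD read, so 12.92 gives a direction but no measured size.

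PTGES, known as microsomal prostaglandin E synthase and usually induced together with PTGS2, had the opposite direction. It ranged from 10.3 to 98.7 CPM in HGA (median 23.6, mean 37.6 ± 29.2, SD, n = 10) and from 50.7 to 212 in primary AGASAC (median 148, mean 134 ± 59.3, SD, n = 11). The groups overlapped, as HGA 4, 5 and 6 lay above the lowest AGASAC, while 7 AGASAC lay above every HGA. The log2FC was −1.81 (SE 0.38, adjusted p = 0.00413). It was −1.31, −1.33 and −2.06 within batches 5, 6 and 8, each no longer called.

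Reads of HPGD and PTGES can be set against each other in each sample, which does not depend on how the libraries are scaled. Since each transcript is read near its 3′ end, counts were not divided by gene length, and the ratio is compared between samples only. HPGD and PTGES were called in opposite directions above, and HPGD alone did not overlap between HGA and primary AGASAC. A split of their ratio between these groups was therefore set in advance and is no further support. By read count, HPGD exceeded PTGES in 10 of 10 HGA, and PTGES exceeded HPGD in 11 of 11 primary AGASAC and 4 of 4 metastases. The log2 ratio of HPGD to PTGES counts, each raised by 0.5, ran from 1.92 to 4.85 in HGA and from −9.77 to −2.71 in primary AGASAC. In the metastases it was −6.51, −7.53, −10.43 and −0.52 in dogs 1 to 4. Metastasis 4 was therefore the AGASAC sample with the ratio closest to those of HGA.

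**Figure D2:**
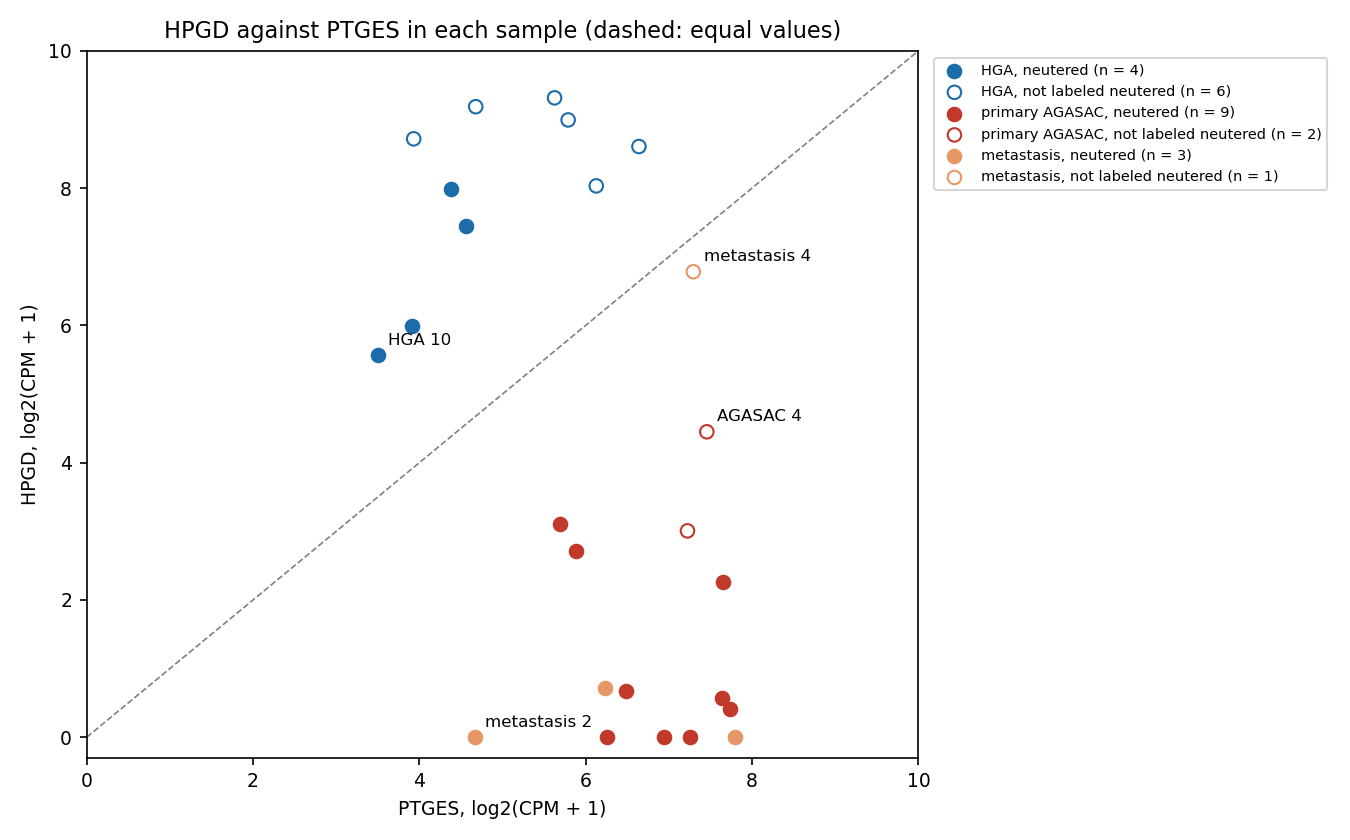
HPGD (y-axis) against PTGES (x-axis) on the log2(CPM + 1) scale, 1 point per sample, filled for dogs labeled neutered and open for the others. All 10 HGA lie above the dashed line of equal values and all 15 AGASAC samples below it, with metastasis 4 nearest to the line.

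The levels of the other synthases overlapped between both tumors. PTGES2, a second membrane-bound synthase, ranged from 32.3 to 114 CPM in HGA (median 57.5) and from 20.3 to 64.7 in primary AGASAC (median 46.5), with a log2FC of 0.56 (SE 0.22, adjusted p = 0.388). PTGES3, which is also the co-chaperone p23 of HSP90, ranged from 54.7 to 128 CPM and from 74.6 to 130, with medians of 110 and 107. Its log2FC was 0.05 (SE 0.15, adjusted p = 1.0), with a 95% interval of −0.25 to 0.34, and its sign turned under several alternatives. PTGIS, the prostacyclin synthase of vessels and stroma, ranged from 0.424 to 13.1 CPM and from 0.729 to 13.1, with a log2FC of −0.34 (SE 0.48, adjusted p = 1.0). The 95% interval was 0.13 to 1.00 for PTGES2 and −1.29 to 0.60 for PTGIS, the widest of these genes.

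The cyclooxygenases had at most 17 counts in HGA and at most 31 in primary AGASAC. PTGS2 had 2 counts in HGA 1 (0.362 CPM) and 0 in the other 9 HGA. In primary AGASAC it ranged from 0 to 31 counts, which is 0 to 9.34 CPM (median 1.38), with reads in 8 of 11 tumors and the highest value in AGASAC 1. HGA summed to 2 counts and primary AGASAC to 85, a depth-corrected ratio of 33.7 with a 95% counting interval of 9.05 to 283. In the fit without filter the log2FC was −4.66 (SE 1.02, adjusted p = 0.00919), and PTGS2 was called lower in HGA, as were 8.39% of all genes in that fit. The log2FC stayed negative with the extraction batch as a factor (−4.38), but the call was lost (adjusted p = 0.0679), and it was also lost within each of the 3 batches. AGASAC 7, 8 and 9 had no PTGS2 read either, and these tumors overlapped with the HGA.

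PTGS1, the constitutive cyclooxygenase, ranged from 0 to 17 counts in HGA (0 to 8.09 CPM, median 2.13) and from 1 to 9 counts in primary AGASAC (0.287 to 2.80 CPM, median 1.21). HGA 2, 3, 5 and 9 lay above all AGASAC, while HGA 4 and 10 had no read. The log2FC without filter was 1.28 (SE 0.68, adjusted p = 1.0). The sum of 3 platelet genes, a cell type known for PTGS1, was at most 5.84 CPM in any sample.

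Of the receptors, PTGER4 was the only one that passed the filter between HGA and primary AGASAC. In HGA it ranged from 0 to 77.0 CPM (median 4.14), with HGA 10 at 77.0 and the other 9 at no more than 12.3. In primary AGASAC it ranged from 4.90 to 134 CPM (median 25.2, mean 49.7 ± 45.3, SD, n = 11). The log2FC was −2.02 (SE 0.72) and did not pass the threshold (adjusted p = 0.248). Without HGA 10 it was −3.37 and PTGER4 was called lower in HGA (adjusted p = 0.00125), so this tumor decided the call. HGA 10 was also the only sample of extraction batch 9 and the only HGA of its series of sequencing file names. Its sums of T cell genes (6.45 CPM, 5 genes) and macrophage genes (181 CPM, 8 genes) lay within the ranges of the other 9 HGA. These were 0.615 to 40.7 CPM and 92.9 to 281 CPM. T cell genes reached 12.1 to 96.5 CPM and macrophage genes 154 to 448 CPM in primary AGASAC, and their part in the PTGER4 levels was not tested.

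PTGER2 and PTGER3 had no read in most HGA and primary AGASAC. PTGER2 had reads in 3 of 10 HGA (at most 2.53 CPM, HGA 1) and in 5 of 11 primary AGASAC (at most 4.13 CPM, AGASAC 6). PTGER3 had reads in 2 of 10 HGA (at most 1.27 CPM, HGA 1) and in 4 of 11 primary AGASAC (at most 6.03 CPM, AGASAC 1). Their log2FC without filter were −0.96 (SE 1.11) and −1.87 (SE 1.14), both with an adjusted p of 1.0.

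**Figure D3:**
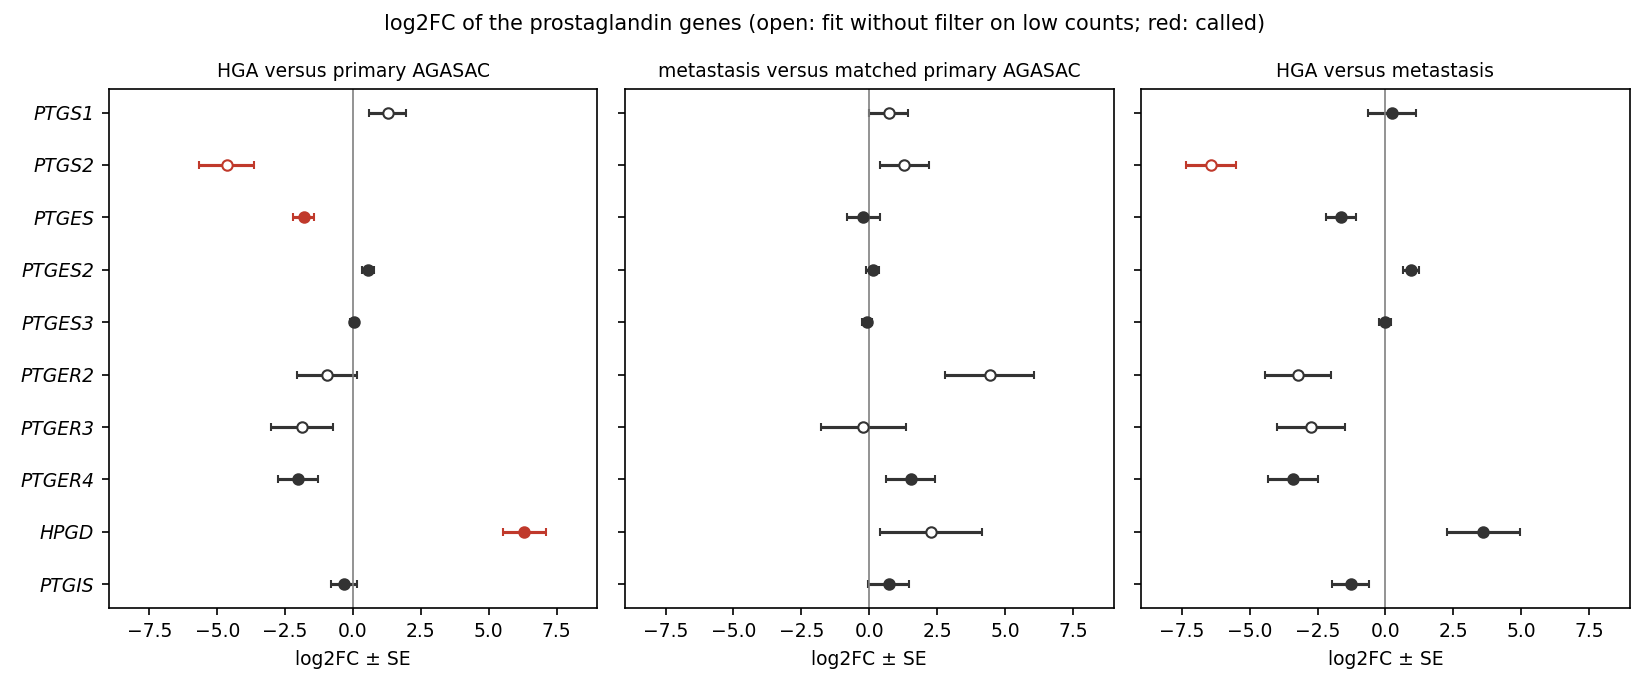
log2FC with its standard error (x-axis) of each gene (y-axis) in the 3 comparisons, the first group relative to the second, with open symbols for the fit without filter and red for called genes. HPGD lies far to the right in HGA relative to primary AGASAC, PTGES and PTGS2 to the left, and no gene is called between metastases and primary tumors.

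The metastases were compared with the primary AGASAC of the same 4 dogs to ask what changed at the second site. None of the 5 members that passed the filter was called by edgeR, and 0 of them had an unadjusted p under 0.05. Of all 12629 genes 0.0% were called, while 145 had an unadjusted p under 0.05 and DESeq2 called 5 genes, none of them a member. With the dog as a block, 491 genes had an unadjusted p under 0.05 and 1 gene was called, again no member. PTGER4 showed the largest log2FC of these members at 1.53 (SE 0.90, adjusted p = 1.0). It was 107, 46.4, 14.8 and 16.4 CPM in the primary tumors of dogs 1 to 4 and 83.7, 144, 11.3 and 287 CPM in their metastases, thus higher in 2 dogs and lower in the other 2. Without metastasis 4 the log2FC was 0.80. Here and below, a fit without a metastasis still held the primary tumor of that dog, so the pair was broken.

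Metastasis 4 also stood apart for PTGS2, PTGER2 and HPGD. PTGS2 was 9.34, 0.654, 1.19 and 2.78 CPM in the primary tumors and 2.60, 5.84, 2.89 and 23.3 CPM in the metastases, higher in 3 of 4 dogs. Its log2FC without filter was 1.3 (SE 0.91, adjusted p = 1.0) and 0.12 without metastasis 4. PTGER2 was 0, 0.654, 0 and 0 CPM in the primary tumors against 0, 2.39, 0.643 and 13.4 CPM in the metastases, with a log2FC of 4.43 without filter (SE 1.63, adjusted p = 1.0). Leaving out metastasis 4 gave 2.47. HPGD was 0.603, 0.327, 0 and 20.8 CPM in the primary tumors and 0.649, 0, 0 and 109 CPM in the metastases. Dog 4 thus had the highest HPGD in both of its tumors, and the log2FC of 2.29 (SE 1.87, adjusted p = 1.0) turned to −4.53 without metastasis 4. That fit kept AGASAC 4 among the primary tumors. In dogs 1 to 3, HPGD changed by 0.041, −0.41 and 0 from primary tumor to metastasis on the log2(CPM + 1) scale. Dog 4 was the only dog of the 4 not labeled neutered. Its metastasis had the highest sum of neutrophil genes in this group (56.9 CPM, the others at most 40.3). The same held for stratified epithelium genes (18.5 CPM, the others at most 7.46) and endothelium genes (207 CPM, the others at most 181). In primary AGASAC these 3 sums were 1.68 to 38.9, 0 to 33.3 and 55.6 to 241 CPM. Another metastasis was highest for simple epithelium, macrophage, mast cell, fibroblast, smooth muscle, T cell, B cell, lymph node stroma and platelet genes. The part of any of these cell types in the values of metastasis 4 was not tested.

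PTGES was lower in the metastases of 3 dogs and higher in the other, with 88.3, 212, 75.3 and 175 CPM in the primary tumors and 74.0, 24.4, 221 and 156 CPM in the metastases. Its log2FC was −0.22 (SE 0.61, adjusted p = 1.0). Metastasis 2, with the lowest PTGES, held the highest PTGIS of all 25 samples at 37.1 CPM, against 11.1 CPM in its primary tumor and 3.89, 8.68 and 6.07 CPM in metastases 1, 3 and 4. The same sample had the highest sums of fibroblast genes (12955 CPM, the other metastases at most 3020) and smooth muscle genes (767 CPM, the others at most 193), and their part in the PTGIS value was not tested. The log2FC of PTGIS was 0.71 (SE 0.77, adjusted p = 1.0) and turned to −0.48 without metastasis 2. PTGER3 was 6.03 and 2.29 CPM in the primary tumors of dogs 1 and 2, 5.84 and 1.33 CPM in their metastases, and 0 in both samples of dogs 3 and 4.

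PTGES2 and PTGES3 overlapped between the sites. PTGES2 was 36.8, 20.3, 31.4 and 32.2 CPM in the primary tumors and 40.2, 25.5, 38.0 and 29.4 CPM in the metastases, with a log2FC of 0.13 (SE 0.24, adjusted p = 1.0). The log2FC of PTGES3 was −0.08 (SE 0.18, adjusted p = 1.0), with a 95% interval of −0.43 to 0.28. PTGS1 was 1.21, 0.654, 2.08 and 2.50 CPM in the primary tumors and 1.95, 3.71, 2.57 and 2.56 CPM in the metastases, thus higher in the metastasis of 4 of 4 dogs. Its log2FC without filter was 0.73 (SE 0.72, adjusted p = 1.0), and 0.78 (SE 0.83, adjusted p = 1.0) with the dog as a block.

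**Figure D4:**
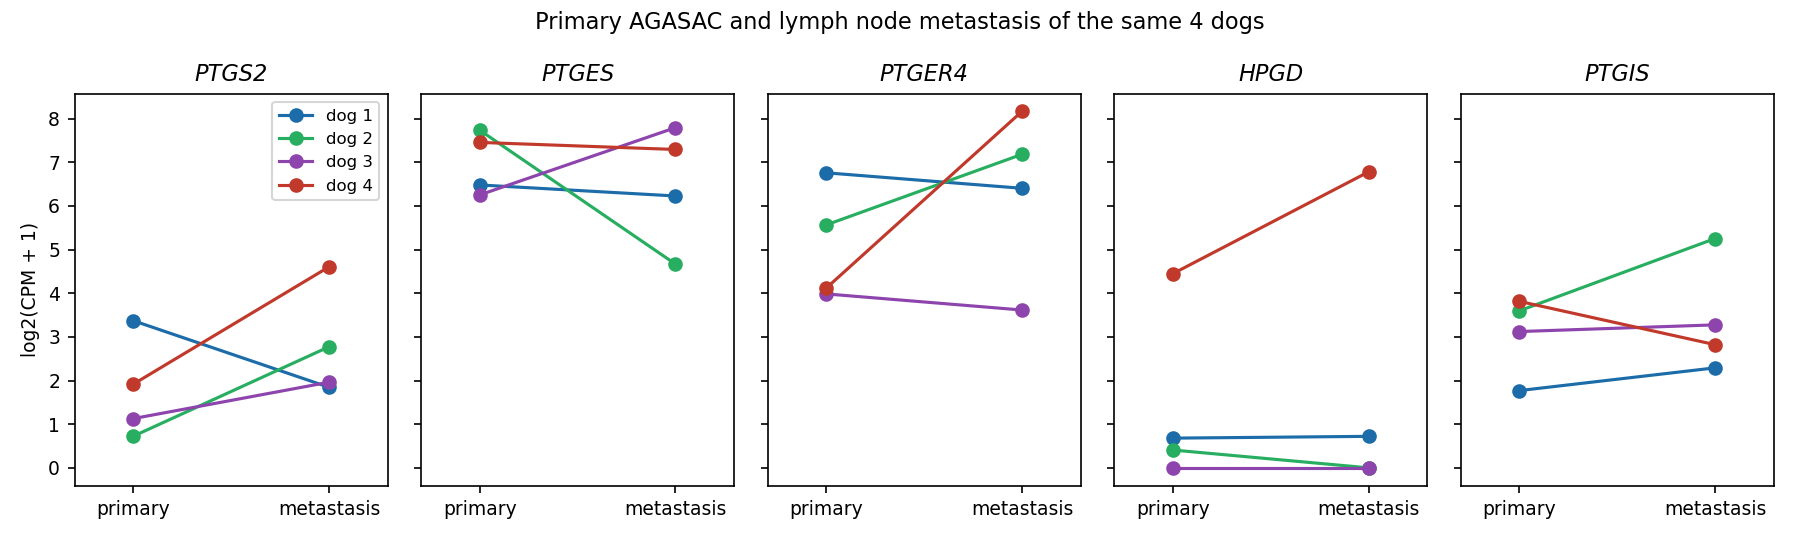
PTGS2, PTGES, PTGER4, HPGD and PTGIS on the log2(CPM + 1) scale (y-axis) in the primary AGASAC and the lymph node metastasis of 4 dogs, joined by a line per dog. The lines cross in each panel but HPGD, where dog 4 lies above the other 3 dogs at both sites, and dog 4 has the steepest upward line for PTGS2 and PTGER4.

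HGA were also compared with the metastases, which share dogs with 4 of the primary tumors, so the values below are not independent of those above. None of the 7 members that passed the filter was called by edgeR or DESeq2, 4 had an unadjusted p under 0.05, and 16.1% of 13195 genes were called. PTGER4 came closest with a log2FC of HGA relative to metastases of −3.41 (SE 0.94, adjusted p = 0.104). Without HGA 10 it was −4.79 and called (adjusted p = 0.000744). HPGD had a log2FC of 3.61 (SE 1.33, adjusted p = 0.482), which became 10.43 without metastasis 4 and was then called (adjusted p = 0.000240). Metastases 1 to 3 held 2, 0 and 0 HPGD counts, so 10.43 gives a direction but no measured size. As metastasis 4 (109 CPM) exceeded HGA 2 (62.4 CPM) and HGA 10 (46.4 CPM), the groups overlapped only through this sample.

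PTGES had a log2FC of −1.64 (SE 0.56, adjusted p = 0.335) and PTGES2 of 0.94 (SE 0.31, adjusted p = 0.276) in HGA relative to metastases. PTGS1, PTGES3 and PTGIS gave 0.25 (SE 0.88), −0.0063 (SE 0.22) and −1.28 (SE 0.68), each with an adjusted p of 1.0. PTGER2 and PTGER3, from the fit without filter, gave −3.21 (SE 1.22, adjusted p = 0.749) and −2.75 (SE 1.26, adjusted p = 1.0). In that fit, where 9.39% of genes were called (5.17% lower in HGA), PTGS2 was the 1 member called, with a log2FC of −6.43 (SE 0.92, adjusted p = 0.000429). All 4 metastases lay above all HGA, an absence of overlap in this direction that 8.72% of the genes that passed the filter also showed. The metastases summed to 112 PTGS2 counts, a depth-corrected ratio of 121 to HGA with a 95% counting interval of 32.7 to 1011. Metastasis 4 gave 73 of these counts, and without it the log2FC was −5.31 and PTGS2 was still called (adjusted p = 0.0128). HGA 1 held the only HGA reads, and PTGS2 was also called without it (adjusted p = 0.0120).

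Within HGA, the levels of HPGD lay apart by neuter label, a split made after the values were seen and not called by either tool. HPGD was 261 to 635 CPM (median 464) in the 6 HGA of dogs not labeled neutered and 46.4 to 253 CPM (median 118) in the 4 of neutered dogs, without overlap, as in 1.16% of all genes in this direction. The log2FC was 1.81 (SE 0.46), and the adjusted p of edgeR was 1.0 and that of DESeq2 0.115. PTGES was 14.3 to 98.7 CPM against 10.3 to 22.6 CPM (log2FC 1.61, SE 0.49, adjusted p = 1.0). PTGER4 was 0 to 8.61 CPM against 1.99 to 77.0 CPM (log2FC −2.69, SE 0.98, adjusted p = 1.0), a value that fell in size to −0.77 without HGA 10. None of the 7 members tested was called by either tool, 3 had an unadjusted p under 0.05, and edgeR called 0.0% of 11906 genes, where 1167 had an unadjusted p under 0.05 and DESeq2 called 18. In primary AGASAC, HPGD was 7.04 and 20.8 CPM in the 2 dogs not labeled neutered, which were females, and 0 to 7.58 CPM in the other 9. Sex was not balanced over the label, as HGA 10 was the only HGA of a neutered male. HPGD was 46.4 to 635 CPM (median 508) in HGA of males and 62.4 to 420 CPM (median 253) in HGA of females. Sex and neuter label were not told apart. With neuter status as a factor, HGA and primary AGASAC still differed in HPGD (log2FC 5.67, adjusted p = 1.43e-06) and PTGES (log2FC −2.47, adjusted p = 0.000426).

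Other genes of the pathway were taken from 7 lists of 79 genes, of which 71 were in the table and 41 passed the filter between HGA and primary AGASAC. Of these 41 genes, 6 were called higher and 5 lower in HGA, with a median log2FC of −0.08 against −0.03 over all genes tested. Over all genes 25.1% were called, 12.6% higher and 12.5% lower, so the lists together lay near this background, against which the counts per list are to be read as well. In the release of arachidonic acid, 4 of 8 genes were called. PLA2G4A, the cytosolic phospholipase that supplies the cyclooxygenases, was lower in HGA (0 to 7.99 CPM) than in primary AGASAC (0.335 to 72.0 CPM, log2FC −3.02, SE 0.63, adjusted p = 0.00374), and it reached 236 CPM in metastasis 4, the sample with the highest PTGS2. ANXA1, an inhibitor of phospholipase A activity, was lower in HGA as well (12.7 to 89.3 CPM against 46.4 to 1444 CPM, log2FC −2.68, adjusted p = 0.00985). The phospholipases PLA2G6 (log2FC 1.35, adjusted p = 0.00648) and PLA2G12A (1.05, adjusted p = 0.00624) were higher in HGA. PLA2G12A lay just past the log2FC threshold, and its call was lost without filter (log2FC 0.996) and without HGA 2, HGA 6, AGASAC 3, AGASAC 6 or AGASAC 9 (log2FC 0.97 to 1.00).

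The other prostanoid synthases that passed the filter were AKR1B1 (log2FC 0.02, SE 0.40) and CBR3 (−0.09, SE 0.61), and neither was called (edgeR adjusted p = 1.0 for both). All 6 other prostanoid receptors failed the filter, with means of at most 2.67 CPM in any group. In transport and reduction, 1 of 4 genes was called, namely PTGR2, a reductase that acts on the product of HPGD (40.3 to 123 CPM in HGA, 11.5 to 32.0 in primary AGASAC, log2FC 1.74, SE 0.22, adjusted p = 9.25e-06). HGA and primary AGASAC did not overlap in PTGR2, as in the 4.37% of all genes tested that were higher in every HGA. Of the listed genes that failed the filter, 5 were called in the fit without it. In that fit 16.2% of all 24332 genes were called. This share includes the genes that passed the filter, and the share among all genes that failed it was not computed. The 5 genes are named after their values were seen. PTGDS, a prostaglandin D synthase (log2FC 3.00, adjusted p = 0.0233), and IL1A, a cytokine that induces PTGS2 (3.47, adjusted p = 0.0163), were higher in HGA, and so was ALOX12, a lipoxygenase with at most 3.04 CPM in HGA and no read in any primary AGASAC (adjusted p = 0.0407). FAM213B was lower in HGA (at most 0.430 CPM, against at most 3.35 CPM in primary AGASAC, log2FC −3.51, adjusted p = 0.0371). ABCC4, an exporter of prostaglandins and other organic anions, was also lower. It was 0 to 3.26 CPM in HGA and 0 to 252 CPM in primary AGASAC (median 82.6), with a log2FC without filter of −6.40 (SE 0.97, adjusted p = 0.000117). In the metastases ABCC4 was 79.2, 175, 62.7 and 0 CPM, with metastasis 4 the one without reads.

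Among 12 genes that regulate PTGS2 transcription or transcript decay, 3 were higher and 1 lower in HGA. CEBPB, a transcription factor that binds the PTGS2 promoter, was 384 to 808 CPM in HGA and 38.8 to 141 CPM in primary AGASAC (log2FC 3.04, SE 0.22, adjusted p = 1.21e-09), again without overlap (4.37% of all genes). PTGS2 had reads in 1 of these 10 HGA. NFKBIA, the inhibitor of NF-κB (log2FC 2.11, adjusted p = 7.83e-06), and the glucocorticoid receptor NR3C1 (1.60, adjusted p = 0.00184) were also higher, while JUN, a subunit of AP-1, was lower (−1.70, adjusted p = 0.000472). Of 13 genes that couple EP receptors to cAMP, PRKACB, a catalytic subunit of protein kinase A (log2FC −3.19, adjusted p = 0.000243), and NR4A1, a target of cAMP signals (−1.78, adjusted p = 0.0292), were lower in HGA, and the other 11 were not called. The call of NR4A1 was lost when any of 9 samples was left out (HGA 1, 3, 5, 7, 8 and 9, AGASAC 4, 5 and 11, adjusted p = 0.0519 to 0.0656). Of the 2 tested genes of the lipoxygenase branch, ALOX5AP (log2FC −1.52, adjusted p = 0.133) and LTA4H (0.48, adjusted p = 0.0975) were not called. Between metastases and primary tumors, edgeR and DESeq2 called 0 of 43 tested pathway genes, and 1 had an unadjusted p under 0.05. Between HGA and metastases 6 of 46 were called, 2 higher and 4 lower in HGA, beside 16.1% of all genes, with a median log2FC of 0.19 against 0.02 over all genes.

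**Figure D5:**
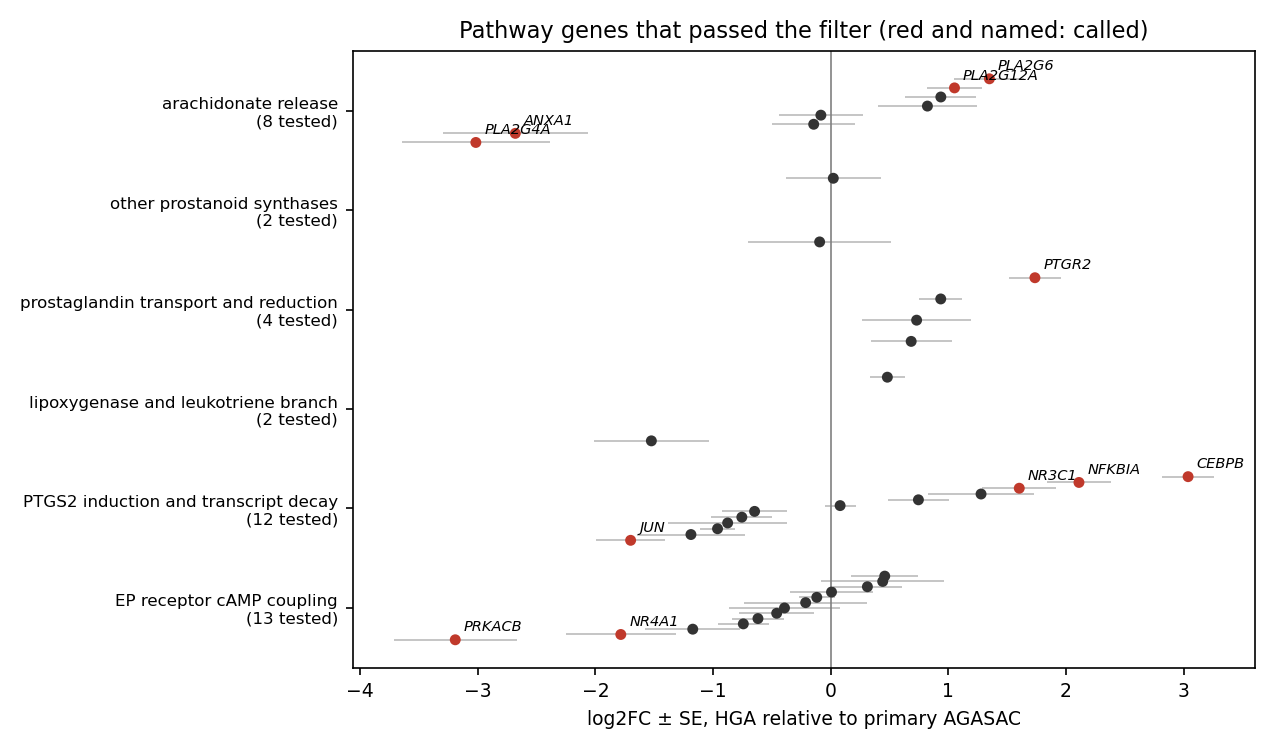
log2FC of HGA relative to primary AGASAC with its standard error (x-axis) for the 41 tested pathway genes, grouped by list (y-axis), with called genes in red and named. Called genes lie on both sides of 0 in the lists of arachidonate release and PTGS2 regulation, and the called genes of EP receptor coupling lie below 0.

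Genes whose pattern was most like that of a member were searched over the 25 samples on the log2(CPM + 1) scale after subtracting each group mean, as a description without test. For HPGD these were PDIA3 (Pearson r = 0.82), RCBTB1 (0.78) and DIAPH2 (0.73), which have their highest level in metastasis 4 and gave 0.72, 0.64 and 0.62 without it. For PTGS2 they were CDYL (0.73), CEBPB (0.73) and ATF7IP2 (0.68). For PTGS1 they were TMEM219 (0.76), DMTN (0.74) and GLT8D2 (0.74). The points share the libraries and their depth, and PTGS1 and PTGS2 had few counts in most samples.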

How the data were processed

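The authors trimmed the reads with cutadapt, aligned them to CanFam3.1 with STAR and counted them per gene with featureCounts, reads left unassigned being counted again after the annotation had been lengthened at the 3′ ends. Multi-mapped reads were shared out over their locations. The deposited counts are whole numbers without normalization, and how shared reads were rounded is not given in the sources used here. The table also holds counts that the authors divided by size factors (signal), their log2 fold changes, and p-values, none of which were used. The main fits used edgeR 4.0.16 under R 4.3.3. Low genes were dropped with filterByExpr (minimum count 10, minimum total count 15), TMM set the library scaling, and a quasi-likelihood F test without covariates compared the samples of each comparison, followed by Benjamini-Yekutieli adjustment. Each standard error was derived from the log2FC and the root of its F value. CPM rest on TMM factors over all 25 samples. Members that failed the filter were taken from a fit without it. DESeq2 1.42.0 and other settings were alternatives. The fits were tested on simulated data. Members and lists were chosen with earlier results of these data known. Named pathway genes were, per list, up to 2 called rises and 2 called falls, and NR3C1, ALOX5AP, LTA4H, PTGDS, FAM213B, ALOX12, IL1A and ABCC4 were added after their values were seen. Every tested gene of the other synthases was named, and for PTGS1, PTGS2 and HPGD the 3 tested genes with the highest Pearson r. No coordinates or sequences are given. The metastasis and primary tumor of a dog came from the same animal, and their deviations from the group means correlated at 0.428 to 0.730 across genes in 4 of 4 dogs, against −0.350 to 0.0906 between dogs. No samples were duplicates, as the smallest chi-square per degree of freedom between replicates was 12.2.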

Additional observations from a re-analysis of the deposited data

Results flagged for a closer look

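In groups of 4 to 10 samples, a sample was singled out when its distance from the nearest other sample was large against the range of the group. For normally distributed values chance alone would single out about 1 in 20 groups. These CPM hold many values of 0 and a few high ones, so the rate due to chance is not known here. In all, 40 groups were examined. PTGS2 was at 23.3 CPM in metastasis 4, with the other metastases at 2.60 to 5.84 CPM. HPGD was at 109 CPM in the same sample, with the others at no more than 0.649 CPM. PTGIS was at 37.1 CPM in metastasis 2, against 3.89 to 8.68 CPM in the other metastases. PTGER4 was at 77.0 CPM in HGA 10, against 0 to 12.3 CPM in the other HGA. HGA 1, the most deeply sequenced library, stood apart for 3 genes with few reads, namely PTGS2 (0.362 CPM, the other HGA at 0), PTGER2 (2.53 CPM, the others at most 0.615) and PTGER3 (1.27 CPM, the others at most 0.607). A count of 0 allows 0.543 to 1.84 CPM in HGA. The PTGS2 value lay below this range and the PTGER3 value within it, so PTGS2 does not set HGA 1 apart from HGA without reads. Among the named pathway genes, NFKBIA was at 1833 CPM in HGA 4, with the other HGA at 437 to 1007 CPM, and at 173 CPM in metastasis 3, with the other metastases at 352 to 369 CPM.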

How the results depend on the processing

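Few reads in most samples limit PTGS1, PTGS2, PTGER2 and PTGER3, and 4 metastases limit their comparisons. Scaling by library size alone moved the median log2FC of all genes from −0.03 to −0.33 between HGA and primary AGASAC and gave 1053 genes higher and 2156 lower in HGA in place of 1523 and 1509, and between HGA and metastases it moved the median to −0.26 and gave 788 and 1383 in place of 1109 and 1015, while HPGD (5.97), PTGES (−2.11) and PTGS2 (−4.79) stayed called between HGA and primary AGASAC.

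Within batches 5 and 6, 1 and 0 members were called between HGA and primary AGASAC, and 262, 637 and 338 genes within batches 5, 6 and 8. The fits within a batch had 5 or 6 samples. PTGES was also lost within file naming series A (−1.60, adjusted p = 0.300). PTGER4 was called with Benjamini-Hochberg adjustment (adjusted p = 0.0249), with batch as a factor (−2.88, adjusted p = 0.0293), within batch 8 (−5.32, adjusted p = 0.0427) and within series A (−3.54, adjusted p = 0.0110). HGA 10 was the only sample of batch 9, so the batch factor removed its weight from the contrast. The fits within batch 8 and series A did not hold HGA 10 either. These settings are thus not separate from the fit without HGA 10. Between metastases and primary tumors, DESeq2 called 5 genes and the replicate block by dog 1 gene, and the block changed no member's call. Between HGA and metastases, 3 members were called with Benjamini-Hochberg adjustment (PTGES, PTGER4 and HPGD), 1 without filter, 1 with the replicate block and 2 with all samples in 1 fit. The numbers of called genes were 3536 with Benjamini-Hochberg adjustment and 762 with the block, which also lost PTGS2 (−5.06, adjusted p = 0.341). HGA and AGASAC share only replicate numbers, with correlations of −0.0460 to 0.0446 over 10 pairs, and between HGA and primary AGASAC the block called 2622 genes in place of 3032. Leaving out a sample changed the calls per list between HGA and primary AGASAC to 3 to 5 for arachidonate release, 1 to 2 for transport and reduction, 4 to 5 for PTGS2 regulation, 1 to 2 for EP receptor coupling and 0 to 1 for the lipoxygenase branch. It gave 0 to 1 members between HGA and metastases and 2 to 3 between HGA and primary AGASAC. By neuter label, 0 genes were called, but 1 with Benjamini-Hochberg adjustment, 1 without filter, 18 with DESeq2 and 0 to 1 when a sample was left out.

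Signs turned only for values that were not called. PTGES3 between HGA and primary AGASAC was −0.25 with library size alone, −0.0070 without filter, −0.033 with batch as a factor, −0.18 and −0.017 within batches 5 and 8, and −0.19 within series A. PTGER2 was 0.0076 with neuter status as a factor and 0.90 within series A, PTGER3 3.80 within batch 6 and PTGIS 0.53 within batch 8. Between metastases and primary AGASAC, all 11 primary tumors and the fit of all samples gave −0.39 and −0.38 for PTGES2, 0.040 and 0.043 for PTGES3, and 0.94 and 0.95 for PTGER3, and DV200 as a covariate gave 0.0018 for PTGER3 and −0.47 for HPGD. Leaving out a sample there gave ranges of −4.53 to 6.32 for HPGD, −2.04 to 1.21 for PTGER3, −0.70 to 0.12 for PTGES, −0.012 to 0.24 for PTGES2, −0.16 to 0.027 for PTGES3 and −0.48 to 1.03 for PTGIS. Each of these fits kept the other tumor of the dog whose sample was left out. Between HGA and metastases, PTGS1 was −0.059 with library size alone and −0.44 with the block, and PTGES3 was 0.11 with the block, 0.0016 with all samples and −0.11 to 0.080 leaving out a sample. By neuter label, PTGIS was −0.038 with library size alone, and leaving out a sample gave −0.38 to 0.40 for PTGIS, −2.49 to 2.13 for PTGER2 and −3.15 to 1.74 for PTGER3. The causes were not tested.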
